A study of Mus musculus with 22 samples.

Results

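The genes that write, copy, remove and guard DNA methylation were followed through mouse preimplantation development, with and without the histone variant H2A.Z. The set holds 10 of the 55335 genes in the deposited expression table, picked by symbol as DNA methyltransferases, TET enzymes and protectors of methylation in the early embryo. They are Dnmt1 and Uhrf1 (maintenance), Dnmt3a, Dnmt3b and Dnmt3l (de novo methylation), Tet1, Tet2 and Tet3 (oxidation of methylcytosine), and Dppa3 and Zfp57 (protection). Each symbol was found once in the table. Methyl groups on cytosines that precede a guanine, called CpG sites, are copied to the new DNA strand after each replication by the enzyme Dnmt1, which Uhrf1 brings to hemimethylated sites. Dnmt3a and Dnmt3b add methyl groups to unmethylated DNA, helped by the inactive cofactor Dnmt3l, while TET enzymes oxidise methylcytosine on the way to its loss. The early embryo loses most of the methylation that the gametes brought, keeps it at imprinted genes, and gains it again around implantation.

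RNA-seq had been made from embryos of B6D2F1 mouse dams of 8 weeks, mated with B6D2F1 males, in 22 libraries of 15 pooled embryos each. Polyadenylated RNA was copied to full-length cDNA with the Smart-seq2 method, amplified over 16 to 18 cycles and read as pairs of 150 bp. The knockdown (KD) was done by injecting zygotes, 20 to 22 h after the ovulation-inducing hormone hCG, with about 10 pl of mixed siRNAs against H2A.Z at 20 µM. The other embryos are called control, and what those of the RNA-seq received is stated neither in the labels nor in the methods, which give controls without injection for quantitative PCR only. The 2-cell groups, collected 43 to 44 h after hCG, had 4 control libraries (replicates 1, 2, 4 and 5) and 3 KD libraries (1, 2 and 4). The morula groups, collected at 78 h, had 4 control libraries (1, 2, 7 and 8) and 3 KD libraries (1, 2 and 6). The blastocyst groups, collected at 94 h, had 4 control libraries and 4 KD libraries (1, 4, 5 and 6 in both). Values of single libraries are given in the order of these numbers.

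Expression is in FPKM, the reads of a gene per length of its transcript and relative to the reads of the library. The number of reads per library is unknown, because the table holds no counts, and between 10143 and 12090 genes reached 1 FPKM in a library. A level is a share of the library's RNA, so less RNA of a gene per cell and fewer cells that carry it cannot be told apart. Stage markers fitted the labels: the summed FPKM of 15 trophectoderm genes was 28.5 ± 5.54 (SD, n = 4) in control 2-cell embryos, 210.3 ± 13.3 in control morulae and 3051 ± 471 in control blastocysts. The summed FPKM of 16 transcripts of the 2-cell stage was 721 ± 139, 20.2 ± 7.19 and 6.30 ± 1.87 in the same groups. Of 12 markers of cumulus and granulosa cells, which surround the egg, only Amhr2 reached 1 FPKM in morula and blastocyst libraries, and between 7 and 10 were at 0. In control 2-cell embryos the 12 summed to 14.0 ± 5.85 FPKM, with Amhr2 at a mean of 11.9 FPKM. The sum was 5.28 ± 0.874 FPKM in control morulae and 5.43 ± 1.18 FPKM in control blastocysts.

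The transcript of the targeted gene H2afz was low in KD libraries of every stage. At the 2-cell stage H2afz was at 1244, 1236, 905 and 1178 FPKM in control libraries and at 415, 139 and 112 FPKM in KD libraries. In morulae it was at 1158, 1336, 1511 and 1421 FPKM in control libraries and at 30.3, 25.7 and 29.0 FPKM in KD libraries. In blastocysts it was at 2656, 2431, 1945 and 2055 FPKM in control libraries and at 64.2, 67.2, 53.2 and 57.6 FPKM in KD libraries. Every KD library lay below every control library of its stage, and 2-cell KD replicate 1 held more H2afz than the other KD libraries. The log2 fold change was -2.53 at the 2-cell stage (SE 0.382), -5.41 in morulae (SE 0.167, adjusted p 9.71e-08) and -5.19 in blastocysts (SE 0.195, adjusted p 3.63e-08). The 2-cell difference did not pass in limma (adjusted p 0.543; 0.000347 to 0.846 over 7 alternatives), and its exact two-sided permutation p was 0.0286, the smallest that 4 against 3 libraries allow. Without KD replicate 1 it was -3.12 (adjusted p 0.000907). The KD effect was stronger in morulae than at the 2-cell stage by -2.88 (SE 0.480, adjusted p 0.00890), a call that ended without the filter on low values (adjusted p 0.0536; 0.00211 to 0.0536 over 5 alternatives).

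The fold changes are differences of mean log2(FPKM + 1) after scaling between libraries, a scale that understates differences of genes near or below 1 FPKM. Genes with at least 1 FPKM in at least 3 libraries of a comparison were tested with limma, which pools information on the spread across genes. Called means a p under 0.05 after Benjamini-Hochberg adjustment over all genes tested, and a strong call also needs an absolute log2 fold change above 1. The p-values measure the spread between libraries of pooled embryos, not between single embryos. Of the 10 genes, 9 passed the filter on low values in the 2-cell KD comparison, 6 in morulae and 8 in blastocysts. A gene that reached the filter only with the libraries of the group where it was highest is here a single-group gene. For such a gene the filter and the test used the same difference in level, so the test is not independent of the filter. Such genes were set apart after the data were seen, and no count of calls that includes them is taken as support.

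**Figure D1:**
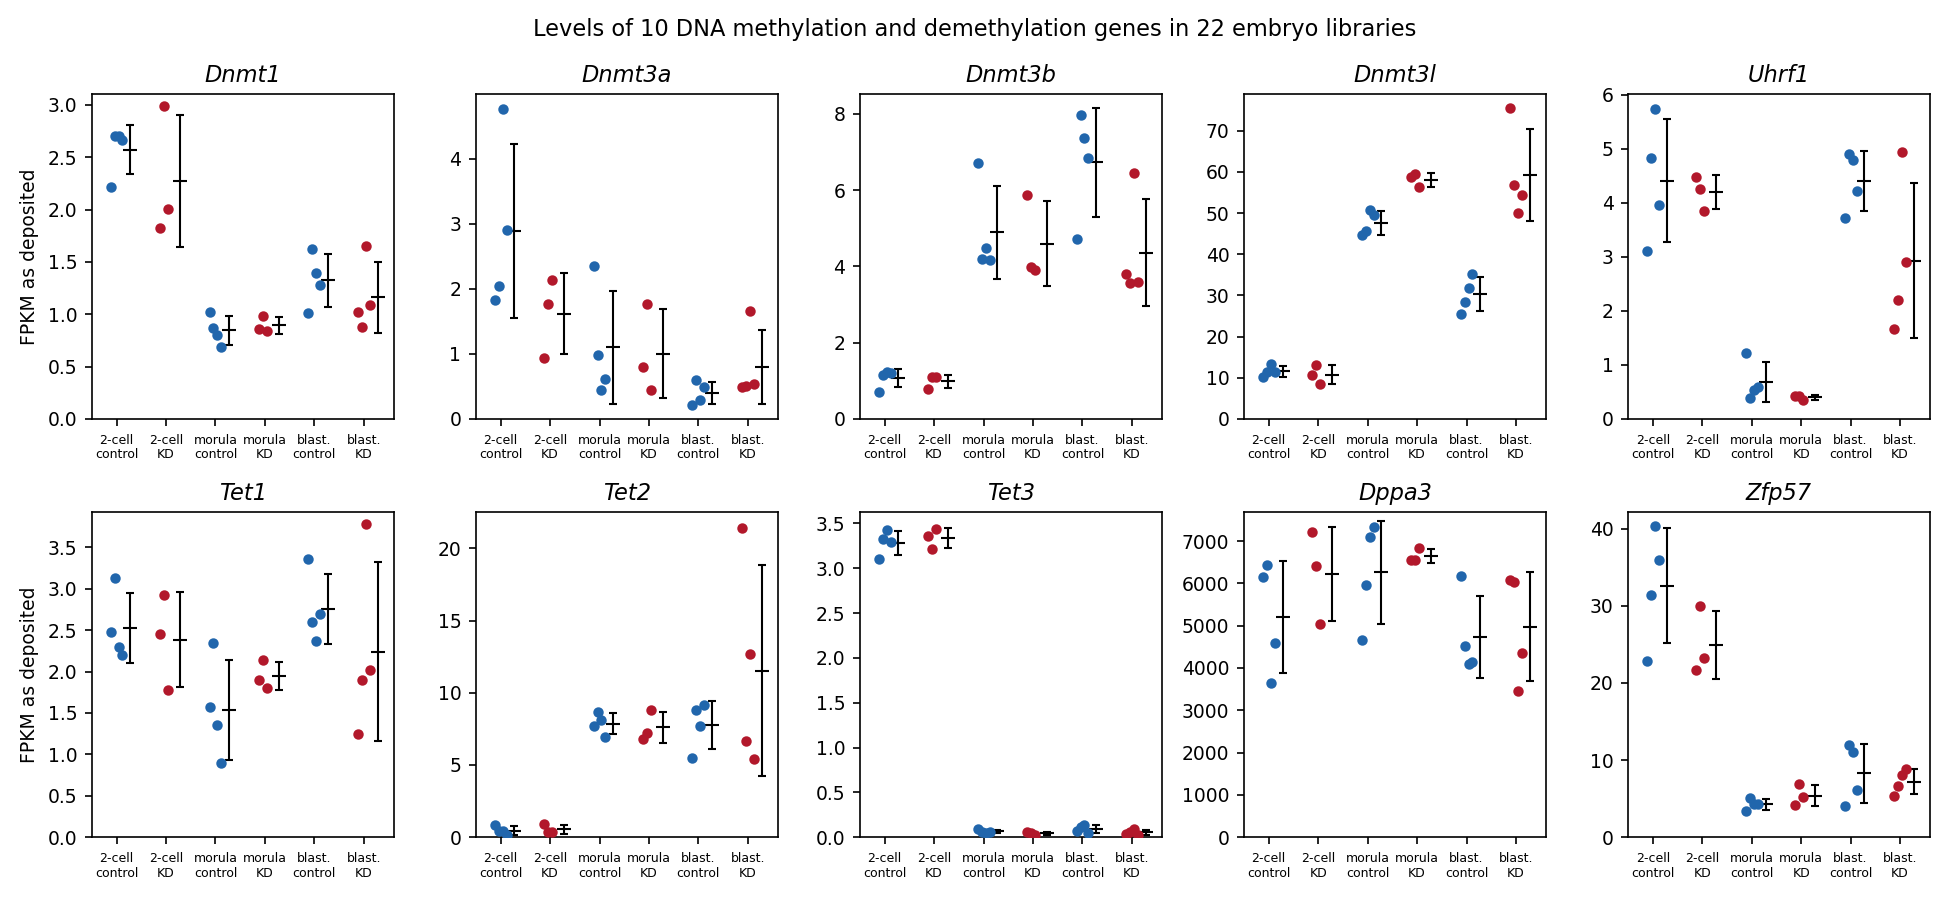
FPKM of the 10 genes (vertical axes, linear, from 0) in each of the 22 libraries by stage and group, with control libraries in blue and KD libraries in red, and black bars for the group mean ± SD. Dnmt3l lay between 49.996 and 75.6 FPKM in the KD blastocyst libraries and between 25.5 and 35.1 FPKM in the control blastocyst libraries.

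Between the 2-cell stage and the morula, Dnmt3b and Dnmt3l rose and Tet1 and Zfp57 fell in control embryos. Tet2 was also called higher, and Dnmt1, Uhrf1, Dnmt3a and Tet3 lower, all 5 as single-group genes. In this comparison of development 10 of the 10 genes were tested, 3 were called higher and 6 lower, where 43% of all 13655 genes tested were called higher and 40.3% lower. Calls were thus common among all genes at this step, and the members' count was not tested against theirs. The libraries of the 2 stages did not overlap for 77.2% of all genes tested, 40% higher and 37.2% lower in morulae. The complete separation given below for members was thus common among all genes too. Of the 9 calls, 6 were strong, 3 higher and 3 lower, beside 4378 and 4112 of all 13655 genes tested. The p-values of Dnmt1, Dnmt3a, Uhrf1, Tet2 and Tet3 at this step are given below but not taken as support. Of the other 5, 2 were called higher and 2 lower, beside 46.4% and 30.1% of all genes left without single-group genes.

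The maintenance pair was lowest in morulae. Dnmt1 was at 2.22, 2.702, 2.704 and 2.67 FPKM in control 2-cell libraries and at 1.03, 0.867, 0.805 and 0.684 FPKM in control morula libraries. Every morula library lay below every 2-cell library (log2 fold change -0.95, SE 0.127, adjusted p 1.93e-05). Uhrf1 was at 3.11, 4.83, 5.74 and 3.97 FPKM in 2-cell libraries and at 1.22, 0.392, 0.527 and 0.589 FPKM in morula libraries. The groups did not overlap, the mean was 6.47 times lower in morulae, and the log2 fold change was -1.68 (SE 0.177, adjusted p 2.41e-06). The table has 1 value per gene, so the oocyte form of Dnmt1 and the somatic form, which start at different exons, were not separated.

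Of the de novo genes, Dnmt3a fell and its partners rose. Dnmt3a was at 1.82, 2.05, 4.76 and 2.90 FPKM in 2-cell libraries and at 2.36, 0.986, 0.445 and 0.606 FPKM in morula libraries. The highest morula library lay above the lowest 2-cell libraries, and the log2 fold change was -0.91 (SE 0.247, adjusted p 0.00437). Dnmt3b was at 0.706, 1.16, 1.22 and 1.21 FPKM in 2-cell libraries and at 6.72, 4.20, 4.48 and 4.16 FPKM in morula libraries. All morula libraries were above all 2-cell libraries, by 4.55 times in the mean (log2 fold change 1.48, SE 0.154, adjusted p 2.17e-06). Dnmt3l was at 10.1, 11.4, 13.4 and 11.4 FPKM in 2-cell libraries and at 44.7, 45.6, 50.7 and 49.5 FPKM in morula libraries. Its groups were also apart, with a mean 4.12 times higher in morulae (log2 fold change 1.95, SE 0.155, adjusted p 2.05e-07). Per length of transcript, Dnmt3l was the most abundant of these 3 genes in each of the 6 groups.

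Among the TET enzymes, Tet3 fell and Tet2 rose. Tet3, which oxidises methylcytosine in the zygote, was at 3.10, 3.32, 3.43 and 3.29 FPKM in 2-cell libraries and at 0.0925, 0.0618, 0.0482 and 0.0577 FPKM in morula libraries. Its mean was 50.5 times lower in morulae and no libraries overlapped (log2 fold change -1.98, SE 0.117, adjusted p 1.70e-08). Tet2 was at 0.809, 0.457, 0.454 and 0.117 FPKM in 2-cell libraries and at 7.69, 8.66, 8.14 and 6.95 FPKM in morula libraries. It was higher in every morula library, by 17.1 times in the mean (log2 fold change 2.58, SE 0.179, adjusted p 6.19e-08). Tet1 was at 2.48, 3.14, 2.30 and 2.20 FPKM in 2-cell libraries and at 1.57, 2.34, 1.35 and 0.896 FPKM in morula libraries. Here the groups overlapped, since morula replicate 2 lay among the 2-cell libraries (log2 fold change -0.50, SE 0.189, adjusted p 0.0273). The Tet1 call ended without 2-cell replicate 2 (adjusted p 0.0603) and without morula replicate 1 (0.0694), 7 (0.0716) or 8 (0.112). It also ended without the filter (0.0651; 0.00505 to 0.0651 over 5 alternatives).

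Of the protectors, Zfp57 fell and Dppa3 was not called. Zfp57, a zinc finger protein that keeps imprinted regions methylated, was at 22.8, 31.4, 40.3 and 35.9 FPKM in 2-cell libraries and at 3.43, 5.13, 4.24 and 4.29 FPKM in morula libraries. Every morula library lay far below every 2-cell library, with a mean 7.63 times lower (log2 fold change -2.65, SE 0.190, adjusted p 8.26e-08). Dppa3, a maternal protein that shields methylcytosine in the zygote, was at 6151, 6442, 3642 and 4583 FPKM in 2-cell libraries and at 4673, 5961, 7097 and 7327 FPKM in morula libraries. The groups overlapped (log2 fold change 0.28, SE 0.268, adjusted p 0.350). Per length, Dppa3 stood far above the other 9 genes in each of the 6 groups.

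Genes that work beside these members were taken from 8 pathway lists, of which 121 entries were in the table. From the 2-cell stage to the morula, 36.8% of the 106 tested were called higher and 44.3% lower, close to the 43% and 40.3% of all genes tested, and no list was tested against all genes. Without single-group genes, 40% of 70 were called higher and 37.1% lower, beside 46.4% and 30.1% of all genes left. Of 11 tested partners of maintenance methylation, 4 were called higher and 5 lower (median log2 fold change -0.40, where the median of all genes tested was 0.10). Without single-group genes it was 4 and 1 of 7. The histone deacetylase Hdac2 rose (1.76). Nlrp14, an oocyte protein that acts with Uhrf1 (-4.69), and Rb1 (-4.06) were lower, both as single-group genes. Of 12 regulators of de novo methylation, 4 were higher and 6 lower (median -0.54), with Kdm1b (-2.21), a histone demethylase of the oocyte, the lowest. Of 12 TET partners and cofactors, 6 were higher and 5 lower (median -0.00307), and 3 and 3 of 7 without single-group genes. The isocitrate dehydrogenases Idh1 (5.30) and Idh2 (4.60), whose product the TET enzymes use, were higher, both as single-group genes. Of 17 genes of base excision repair, which replaces oxidised methylcytosine, 10 were higher and 5 lower (median 0.94). Among them were the single-group gene Apobec3 (4.12) and Apex1 (2.31). Without single-group genes it was 6 and 2 of 9. Of 18 genes of methyl donor metabolism, 8 were higher and 6 lower (median 0.06), and Bhmt, which makes methionine from betaine, rose by 8.64. Of 13 genes of imprint protection and KRAB repression, 3 were higher and 6 lower (median -0.24). Of 5 readers of methylated CpG, 0 were higher and 4 lower (median -0.96), and of 18 germline genes, 4 were higher and 10 lower (median -0.80). Without single-group genes it was 0 and 1 of 2 readers and 4 and 7 of 14 germline genes. In the same way it was 2 and 5 of 8 regulators of de novo methylation. It was 6 and 4 of 13 genes of methyl donor metabolism and 3 and 3 of 10 of imprint protection. Of the 45 genes that the naming rule took here, 44 were called without any single library, which for single-group genes is no support. The other, Kdm2b (0.89), lost its call without 2-cell replicate 2 or morula replicate 1 (adjusted p up to 0.0746). Of the marker lists, maternal transcripts of the oocyte had 1 called higher and 17 lower of 19 tested, transcripts of the 2-cell stage 0 and 15 of 15, inner cell mass 8 and 3 of 12, trophectoderm 10 and 1 of 11, primitive endoderm 2 and 1 of 3, and cumulus and granulosa cells 0 and 2 of 2. Without single-group genes these became 1 and 5 of 7, 0 and 4 of 4, 5 and 1 of 7, 3 and 0 of 3, 1 and 0 of 1, and 0 and 1 of 1.

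From the morula to the blastocyst, control embryos gained some Tet1 and lost part of their Dnmt3l. Uhrf1, a single-group gene here, stood higher in every blastocyst library. Of 8 genes tested, 2 were called higher and 1 lower, where 27.6% of all 11849 genes tested were called higher and 28.8% lower. Without single-group genes, 1 was called higher and 1 lower of 6, beside 24.2% and 28.2% of all genes left. Only 1 of 4 morula libraries held Uhrf1 at 1 FPKM, so its p-value is not taken as support. For 50.6% of all genes tested the libraries of the 2 stages did not overlap, 27.8% higher and 22.8% lower in blastocysts. Uhrf1 was at 3.71, 4.91, 4.80 and 4.22 FPKM in control blastocysts, all above the morula libraries, and its mean was 6.47 times that of morulae (log2 fold change 1.65, SE 0.157, adjusted p 4.84e-06). Dnmt3l was at 25.5, 28.5, 31.8 and 35.1 FPKM in control blastocysts. All 4 libraries lay below all control morulae (log2 fold change -0.73, SE 0.147, adjusted p 0.00116). Tet1 was at 3.36, 2.60, 2.37 and 2.697 FPKM in control blastocysts, just above the highest morula library (log2 fold change 0.53, SE 0.193, adjusted p 0.0338). The Tet1 call ended without morula replicate 1 (adjusted p 0.0686), 7 (0.0709) or 8 (0.103), and without blastocyst replicate 1 (0.0823) or 6 (0.0545). It also ended without the filter (0.0929; 0.0142 to 0.0929 over 5 alternatives).

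The other genes were not called at this step, though some lay near the threshold. Zfp57 was at 4.003, 11.9, 11.02 and 6.12 FPKM in control blastocysts, overlapping the morula libraries (log2 fold change 0.64, SE 0.261, adjusted p 0.0548). It was called without blastocyst replicate 1 (adjusted p 0.00916) or 6 (0.0496), and in 2 of 5 alternatives (adjusted p 0.0103 to 0.163), with FPKM as deposited (0.0488) and with all 22 libraries in 1 fit (0.0103). Dppa3 was at 6173, 4530.2, 4095 and 4134 FPKM, again with overlap (log2 fold change -0.49, SE 0.239, adjusted p 0.0990), and was called without morula replicate 1 (adjusted p 0.0179) or blastocyst replicate 1 (0.0196). The log2 fold change was 0.28 for Dnmt1 (SE 0.124, adjusted p 0.0705), 0.32 for Dnmt3b (SE 0.166, adjusted p 0.123) and -0.11 for Tet2 (SE 0.161, adjusted p 0.583). With all 22 libraries in 1 fit Dnmt1 (adjusted p 0.0257, 0.0257 to 0.0800 over 5 alternatives) and Dnmt3b (0.0365, 0.0365 to 0.149) were called. Dnmt3a and Tet3 were under the filter, with control blastocyst means of 0.398 ± 0.175 and 0.0926 ± 0.0411 FPKM (SD, n = 4). Both comparisons of development use the same 4 control morula libraries, so their values are not independent.

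From the morula to the blastocyst, 18.5% of the 92 pathway genes tested were called higher and 42.4% lower, beside 27.6% and 28.8% of all genes tested, a difference that was not tested. Without single-group genes it was 14.1% and 42.3% of 78, beside 24.2% and 28.2%. The lists went different ways, and the median log2 fold change of all genes tested was -0.02. Of 11 regulators of de novo methylation, 0 were called higher and 7 lower (median log2 fold change -0.57), among them Kdm2b (-2.67), which binds unmethylated CpG islands, and Sall4 (-1.32). Of 15 genes of base excision repair, 1 was higher and 8 lower (median -0.56). The 1 was the single-group gene Tdg (2.21), the glycosylase that removes the products of TET enzymes. Without single-group genes it was 0 and 7 of 13. Of 8 partners of maintenance methylation, 4 were higher and 3 lower (median 0.13), and 3 and 3 of 7 without single-group genes. The replication ligase Lig1 (1.28) and the clamp Pcna (0.86) rose. The Uhrf1 relative Uhrf2 (1.18) was higher as a single-group gene, as was Uhrf1. Of 11 genes of imprint protection, 2 were higher and 4 lower (median -0.40), and the corepressor Trim28 fell (-0.83). Of 12 TET partners, 4 were higher and 3 lower (median 0.08), of 16 genes of methyl donor metabolism 2 and 5 (median -0.25), of 4 readers of methylated CpG 2 and 0 (median 0.32), and of 15 germline genes 2 and 9 (median -0.59). Without single-group genes it was 2 and 3 of 10 TET partners and 2 and 5 of 15 genes of methyl donor metabolism. It was 0 and 0 of 2 readers, 2 and 5 of 11 germline genes, 0 and 6 of 10 regulators of de novo methylation and 2 and 4 of 10 genes of imprint protection. Of the 36 genes that the naming rule took here, 34 were called without any single library. For the single-group genes among them this is not taken as support. Zfp42 (0.48), of imprint protection, lost its call without morula replicates 1 or 2 or blastocyst replicates 1 or 5 (adjusted p up to 0.0954). Dcaf1 (-0.49), a TET partner, lost it without morula replicates 1, 2 or 7 or blastocyst replicates 1, 4 or 5 (up to 0.0990). Of the marker lists, trophectoderm had 9 called higher and 2 lower of 14 tested, inner cell mass 5 and 5 of 12, maternal transcripts 1 and 4 of 7, transcripts of the 2-cell stage 0 and 3 of 5, and primitive endoderm (3 tested) and cumulus and granulosa cells (1 tested) 0. Without single-group genes, trophectoderm had 6 and 2 of 10, inner cell mass 3 and 5 of 10, maternal transcripts 1 and 2 of 4 and transcripts of the 2-cell stage 0 and 1 of 2.

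At the 2-cell stage, none of the 9 methylation genes tested was called in KD embryos, with 0 higher and 0 lower, where 0% of all 12160 genes tested were called higher and 0% lower. By limma 701 genes had an unadjusted p under 0.05, and none of the 9 members was among them. The difference of H2afz did not pass at this stage either, so the lack of calls does not show equal levels. A limma fit of all 22 libraries called 15 genes higher and 18 lower at this stage, again without a member. Dnmt3a was at 0.932, 1.77 and 2.14 FPKM in KD libraries, overlapping the controls given above, with the widest difference of the 9 (mean 1.79 times lower, log2 fold change -0.49, SE 0.266, adjusted p 0.828). Dppa3 was at 7220, 6422 and 5033 FPKM in KD libraries, also overlapping (log2 fold change 0.35, SE 0.257, adjusted p 0.848). Zfp57 was at 21.7, 29.9 and 23.2 FPKM in KD libraries, all inside or just below the control range (log2 fold change -0.29, SE 0.188, adjusted p 0.840). The other 6 genes had log2 fold changes between -0.09 (Dnmt1) and 0.07 (Tet3). Tet3 was at 3.36, 3.22 and 3.44 FPKM in KD libraries, overlapping the controls. Tet2, under the filter, was at 0.928, 0.373 and 0.330 FPKM. The mitochondrial share of summed FPKM overlapped between the groups, at 26.9, 22.8 and 26.3% in KD libraries and 22.8, 27.04, 20.7 and 21.8% in controls.

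In KD morulae the cofactor Dnmt3l stood higher than in controls without passing the test, and none of the 6 genes tested was called. The counts were 0 higher and 0 lower, where 4.23% of all 10989 genes tested were called higher and 9.04% lower. Of the 6, limma gave 1 an unadjusted p under 0.05, Dnmt3l (p 0.0189). Dnmt3l was at 58.7, 59.4 and 56.2 FPKM in KD libraries, against 44.7, 45.6, 50.7 and 49.5 FPKM in controls. All 3 KD libraries lay above all 4 control libraries, as for 6.7% of all genes tested (log2 fold change 0.41, SE 0.146, adjusted p 0.0920; exact two-sided permutation p 0.0286). Its adjusted p ranged from 0.0382 to 0.151 over 7 alternatives, and the lowest, past the threshold, came with a batch term that set replicates 1 and 2 apart from those with higher numbers. With this term the genes called, of all tested, went from 465 higher and 993 lower to 777 and 1261. Deviations from the group means, correlated across genes, gave 0.0944 to 0.181 between control and KD replicates 1 and 2. They gave 0.185 and 0.347 for control replicates 7 and 8 with KD replicate 6, and -0.278 to -0.0945 between the 2 ranges of numbers. The fit without the term had been planned and was kept. The share of summed FPKM from mitochondrial genes was 17.3, 18.3 and 15.7% in KD morulae and 13.3, 14.4, 14.6 and 13.4% in control morulae, higher in every KD library, and its part in these values was not tested.

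The other morula values overlapped between the groups. Zfp57 was at 4.11, 6.84 and 5.22 FPKM in KD libraries (log2 fold change 0.37, SE 0.209, adjusted p 0.261). Tet1 was at 1.90, 2.14 and 1.80 FPKM (log2 fold change 0.32, SE 0.192, adjusted p 0.282), closer together than the control libraries. Dppa3 was at 6550.0, 6554 and 6845 FPKM (log2 fold change 0.23, SE 0.206, adjusted p 0.472). Dnmt3b was at 5.88, 3.98 and 3.91 FPKM (log2 fold change 0.03) and Tet2 at 6.83, 7.18 and 8.80 FPKM (log2 fold change 0.07), and with FPKM as deposited both signs turned, to -0.07 and -0.05. Without that scaling, the median log2 fold change of all genes tested was -0.0852 in place of 0.0152, and 15.3% of the called genes were higher in KD in place of 31.9%. Dnmt1, Dnmt3a, Uhrf1 and Tet3 were under the filter. Uhrf1 was at 0.431, 0.421 and 0.350 FPKM in KD morulae, within or just below the control range.

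KD blastocysts had 1.96 times the mean Dnmt3l FPKM of control blastocysts and less Dnmt3b. Of the 8 genes tested, 1 was called higher (Dnmt3l) and 1 lower (Dnmt3b), where 16.7% of all 11828 genes tested were called higher and 19.8% lower, so calls were no more frequent among these genes than among all. Neither was a strong call. Dnmt3l, which stimulates Dnmt3a and Dnmt3b and has no activity of its own, was at 75.6, 56.9, 49.996 and 54.4 FPKM in KD libraries, against 25.5, 28.5, 31.8 and 35.1 FPKM in controls. Every KD library was above every control library, as for 14.6% of all genes tested, and KD replicate 1 was the highest. The log2 fold change was 0.95 (SE 0.187, 95% interval 0.54 to 1.35, adjusted p 0.00217), a fold of 1.93, and the exact two-sided permutation p was 0.0286, the smallest that 4 against 4 libraries allow. The call held without any single library (log2 fold change 0.80 to 1.07) and in all 7 alternatives (0.91 to 0.97). Mean Dnmt3l was 59.2 ± 11.3 FPKM in KD blastocysts (n = 4) and 58.1 ± 1.69 FPKM in KD morulae (n = 3), a pair of groups that was not tested. Control blastocysts were lower than control morulae (30.2 ± 4.15 and 47.6 ± 2.94 FPKM, n = 4 each). By limma's interaction test, the KD effect on Dnmt3l was not called different between these stages (log2 difference 0.50, SE 0.238, adjusted p 0.185).

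Dnmt3b, a de novo methyltransferase, was at 3.81, 3.58, 6.45 and 3.58 FPKM in KD blastocysts, against 4.71, 7.98, 7.37 and 6.84 FPKM in controls. KD replicates 1, 4 and 6 lay below all controls, while KD replicate 5 lay among them. The log2 fold change was -0.53 (SE 0.187, 95% interval -0.94 to -0.13, adjusted p 0.0409; exact two-sided permutation p 0.0571). The call was kept without control replicate 1 (adjusted p 0.0275) and KD replicate 5 (0.0162). It ended without control replicate 4 (0.111), 5 (0.0767) or 6 (0.0831) and without KD replicate 1 (0.0792), 4 (0.0876) or 6 (0.116). It also ended with FPKM as deposited (adjusted p 0.0775) and without the filter (0.0755), and over 7 alternatives the adjusted p ranged from 0.00704 to 0.0775.

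Uhrf1 had a difference like that of Dnmt3b and did not pass. It was at 1.67, 2.20, 4.94 and 2.91 FPKM in KD blastocysts, against 3.71, 4.91, 4.80 and 4.22 FPKM in controls. Again KD replicates 1, 4 and 6 lay below all controls and KD replicate 5 lay just above them (log2 fold change -0.52, SE 0.207, adjusted p 0.0677, 0.0185 to 0.151 over 7 alternatives). Without KD replicate 5 the gene was called (log2 fold change -0.70, adjusted p 0.0120), and it was called with all 22 libraries in 1 fit (adjusted p 0.0185). Tet1 was at 1.25, 1.90, 3.78 and 2.02 FPKM in KD blastocysts, with replicate 5 the highest once more (log2 fold change -0.27, SE 0.212, adjusted p 0.353). Dnmt1 was at 1.02, 0.881, 1.66 and 1.09 FPKM (log2 fold change -0.11, SE 0.151, adjusted p 0.606). KD replicate 5 was the highest KD blastocyst library for Dnmt1, Dnmt3a, Dnmt3b, Uhrf1, Tet1 and Tet3, and it had the most genes at 1 FPKM of these 4 libraries (11495, against 10792, 10796 and 11048). The part of that library in these results, beyond the values without it, was not tested.

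Tet2 and the protectors varied within the KD blastocysts. Tet2 was at 21.4, 6.63, 12.7 and 5.42 FPKM in KD libraries, against 5.45, 8.81, 7.72 and 9.14 FPKM in controls. KD replicates 1 and 5 were above all controls and KD replicates 4 and 6 were not (log2 fold change 0.36, SE 0.335, adjusted p 0.427). Dppa3 was at 6075, 6035, 3461 and 4344 FPKM (log2 fold change 0.06) and Zfp57 at 5.29, 6.67, 8.03 and 8.86 FPKM (log2 fold change -0.08), inside or close to the control ranges. Dnmt3a and Tet3 were under the filter, at 0.486, 0.511, 1.65 and 0.530 FPKM and at 0.0352, 0.0602, 0.0915 and 0.0295 FPKM.

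**Figure D2:**
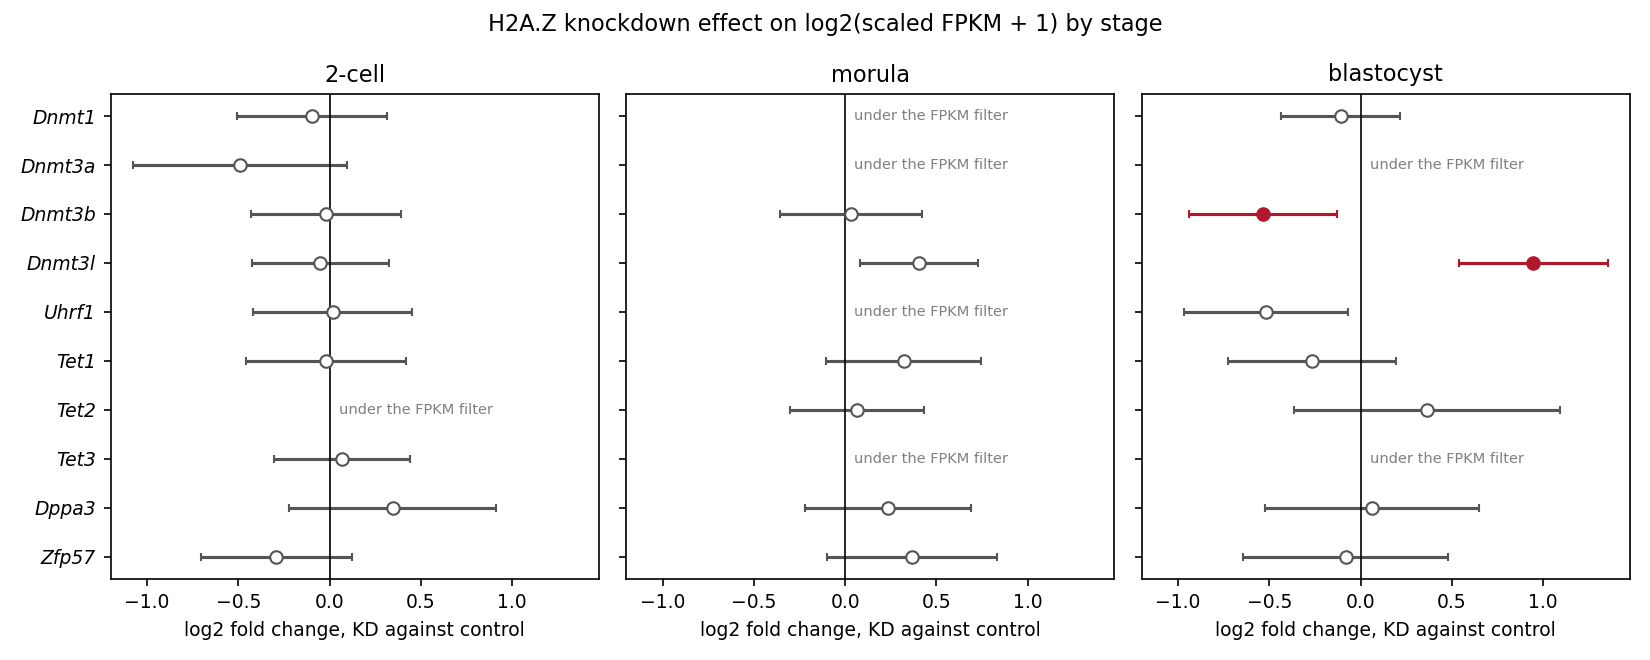
Log2 fold change of KD against control (horizontal axes, log2 of scaled FPKM + 1) for the 10 genes by stage, with 95% intervals from limma. Filled red points were called, and these were Dnmt3l (0.95) and Dnmt3b (-0.53), both in blastocysts.

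The KD blastocysts also differed from controls in stage and lineage markers, at a stage where 16.7% of all genes tested were called higher and 19.8% lower (15.1% and 18.4% without single-group genes), and no marker list was tested against all genes. On a line from the mean control morula at 0 to the mean control blastocyst at 1, over 12718 genes other than the members, with each control library placed against means that leave it out, KD blastocysts stood at 0.446, 0.565, 0.435 and 0.475 and control blastocysts at 1.07, 0.984, 0.897 and 0.924. The 15 trophectoderm markers summed to 1129.7, 1402, 1244 and 1116 FPKM in KD libraries and to 3337, 3525, 2859 and 2484 FPKM in controls, with 0 of 15 genes at 0. The mean of Krt18 was 390 FPKM in KD libraries and 799 FPKM in controls. Of the 12 that were not single-group genes, 2 were called higher (Tfap2c and Tead4) and 3 lower, Dppa1 (log2 fold change -2.56), Id2 (-1.33) and Krt18 (-1.02), the last named after its value was seen. The single-group genes Gata2, Elf5 and Krt7 are not counted, and Gata2 and Elf5 were under the filter without control replicate 1, 4 or 5. The 14 markers of the inner cell mass summed to 4893, 5520.1, 3695 and 4260.4 FPKM in KD libraries and to 9065, 7532, 6515 and 6739 FPKM in controls, with Dppa5a the most abundant. Dppa5a made up most of the sum, with means of 3967 FPKM in KD libraries and 6827 FPKM in controls. The summed means were 4592 and 7463 FPKM, so the sum mostly follows this 1 gene. Of the 11 tested that were not single-group genes, 2 were called higher (Utf1 and Klf4) and 3 lower, Tdgf1 (-2.28), Gdf3 (-1.51) and Dppa5a (-0.78), the last named after its value was seen. Prdm14 (-1.03) was a single-group gene. Utf1 lost its call without control replicates 1 or 6 or KD replicates 1, 5 or 6 (adjusted p up to 0.131), Klf4 without control replicates 4, 5 or 6 or KD replicates 5 or 6 (up to 0.0958), and Dppa5a without control replicates 1 or 4 or KD replicates 5 or 6 (up to 0.0677). Among 4 tested maternal transcripts of the oocyte, Padi6 was higher (0.66) and Ooep lower (-3.52), and of 5 tested transcripts of the 2-cell stage 3 were higher, the single-group genes Tcstv3 (2.01) and Zfp352 (1.56), and Tdpoz1 (0.72, lost without control replicates 1 or 4 or KD replicates 4, 5 or 6, adjusted p up to 0.0872). Of 10 primitive endoderm markers, 3 were tested and 0 called, and Dab2 was the most abundant. The 1 tested marker of cumulus and granulosa cells was not called (log2 fold change -0.11). In control morulae Dnmt3l was higher and Uhrf1 and Tet1 were lower than in control blastocysts, and the part of stage and lineage in the KD values was not tested. The mitochondrial share of summed FPKM was 14.6, 14.9, 12.98 and 15.3% in KD blastocysts and 20.04, 16.3, 15.2 and 17.1% in controls, with 1 KD library above the lowest control, and its part was not tested either.

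Whether the KD effect on these genes differed between stages was tested directly as an interaction, and no difference was called. Between the morula and the 2-cell stage, 10 genes were tested, with 0 above and 0 below, where 0.438% of all 14605 genes tested were called above 0 and 1% below. These 64 and 146 genes became 26 and 68 without 2-cell KD replicate 1, 42 and 97 without 2-cell KD replicate 2, 38 and 83 without 2-cell KD replicate 4 and 38 and 101 without 2-cell control replicate 2. They became 33 and 54 without morula KD replicate 1, 28 and 58 without morula KD replicate 2, 94 and 242 without morula control replicate 1, 37 and 69 without morula control replicate 7 and 44 and 72 without morula control replicate 8. They were 42 and 93 with a pseudocount of 0.1, 48 and 80 without the filter and 65 and 276 with FPKM as deposited. Limma gave 2148 genes an unadjusted p under 0.05, among them Zfp57 (log2 difference 0.65, SE 0.282, adjusted p 0.297). Between the blastocyst and the morula, 9 genes were tested, with 0 above and 0 below, where 5.43% of all 12727 genes tested were called above 0 and 6.32% below. These 691 and 804 genes became 413 and 549 without morula KD replicate 1 and 436 and 561 without morula KD replicate 2. They were 398 and 590 without the filter and 894 and 703 with FPKM as deposited. Of the 3480 genes with an unadjusted p under 0.05, 2 were members. The difference was -0.60 for Dnmt3b (SE 0.250, adjusted p 0.132) and -0.62 for Tet1 (SE 0.291, adjusted p 0.181), and 0.50 for Dnmt3l (SE 0.238, adjusted p 0.185). The Dnmt3l difference was called with FPKM as deposited (0.66, adjusted p 0.0439, 0.0439 to 0.312 over 5 alternatives), where the median of all genes tested was 0.111 in place of -0.00862. Both tests use the same 7 morula libraries.

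Of the wider pathway, limma called 0 listed genes in KD embryos of the 2-cell stage, as for all genes. The medians of the 8 lists lay between -0.09 for 14 genes of base excision repair and 0.25 for 11 regulators of de novo methylation. Those of the marker lists lay between -0.20 for 2 genes of cumulus and granulosa cells and 0.32 for 2 of primitive endoderm, with 0 called.

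In KD morulae 4.71% of the 85 pathway genes tested were called higher and 10.6% lower, near the 4.23% and 9.04% of all genes tested. Without the single-group genes, of which Slc25a31, Tuba3a, Slc19a1 and Neil1 were called lower, it was 5.41% and 6.76% of 74, beside 4.15% and 7.48%. Of 15 tested germline genes, whose promoters are methylated in somatic cells, 1 was higher and 5 lower (median log2 fold change -0.57, where the median of all genes tested was 0.02). Hormad1, a protein of meiotic chromosomes, rose from 14.6 ± 2.47 FPKM in 4 control libraries to 40.7 ± 6.63 FPKM in 3 KD libraries (log2 fold change 1.54, SE 0.179, adjusted p 0.00152). Slc25a31, an ATP carrier of germ cells, fell from 3.78 ± 0.408 to 0.276 ± 0.131 FPKM (-1.83, SE 0.157, adjusted p 0.000321), and Tuba3a (-1.20) and Asz1 (-1.17) fell too. The other 2, named after their values were seen, were Ddx4 (-0.59) and Rpl10l (-0.57). Of 15 genes of methyl donor metabolism, 0 were higher and 3 lower (median -0.31). Shmt2, the mitochondrial serine hydroxymethyltransferase, fell from 7.22 ± 1.23 to 2.77 ± 0.629 FPKM (-1.02, SE 0.177, adjusted p 0.00713), beside the folate carrier Slc19a1 (-0.85) and Shmt1 (-0.67). Of 14 genes of base excision repair, 0 were higher and 1 lower (median -0.18), the glycosylase Neil1 (-0.87, SE 0.155, adjusted p 0.00793). Of 10 regulators of de novo methylation, 2 were higher and 0 lower (median 0.15), the H3K36 methyltransferase Setd2 (0.53) and Rif1 (0.51). Of 7 partners of maintenance methylation, 1 was higher (median -0.03), the deubiquitinase Usp7 (0.54). No gene was called among 11 of imprint protection (median 0.23), 11 TET partners (0.13) and 2 readers of methylated CpG (0.21). With single-group genes set apart, 1 was higher and 3 lower of 11 germline genes. In the same way it was 0 and 2 of 14 of methyl donor metabolism, and 0 and 0 of 11 of base excision repair. It was 2 and 0 of 9 regulators of de novo methylation. The p-values of Slc25a31 and Neil1 are not taken as support.

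Hormad1, Asz1 and Shmt2 stayed called in KD morulae without any single library. So did Slc25a31, Tuba3a and Neil1, which are single-group genes, so this is not taken as support for them. The calls of Usp7 and Rif1 ended without control replicates 2, 7 or 8 or KD replicates 1 or 2, with adjusted p up to 0.147 and 0.166. That of Setd2 also ended without KD replicate 6 (up to 0.126). Shmt1 was called only when KD replicate 6 was the library left out (otherwise up to 0.180), and Slc19a1 ended without KD replicate 1 or 2 (up to 0.0811). Ddx4 ended without control replicates 2, 7 or 8 or KD replicates 1 or 6 (up to 0.132), and Rpl10l without control replicates 7 or 8 or KD replicates 1 or 2 (up to 0.114). The counts of all genes called also moved. Of 465 higher and 993 lower, 140 and 411 were left in number without KD replicate 2, 164 and 415 without KD replicate 1, 259 and 651 without control replicate 7, 268 and 587 without control replicate 8, and 294 and 747 without control replicate 2. They were 129 and 283 without the filter and 281 and 1553 with FPKM as deposited.

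Some stage and lineage markers were called in KD morulae as well, beside the 4.23% higher and 9.04% lower of all genes tested. Ooep and Tdpoz3 were single-group genes. Of 11 tested genes of the inner cell mass, 1 was higher, Klf2 (0.71), and 2 lower, Nanog (-2.23) and Gdf3 (-0.69). Of 11 trophectoderm genes only Cldn4 (-1.00172) was called, of 8 maternal transcripts only Ooep (-1.23), and of 7 transcripts of the 2-cell stage Gm8300 (0.93) and Tdpoz3 (0.81) were higher. Genes of primitive endoderm (2 tested) and of cumulus and granulosa cells (1 tested) had 0 calls. The trophectoderm genes summed to 227, 199, 200.1 and 215 FPKM in control morulae and 168, 151 and 209 FPKM in KD morulae. The mean of Krt18 was 62.7 FPKM in control morulae and 45.2 FPKM in KD morulae. Nanog, Cldn4 and Ooep were called without any single library, which for the single-group gene Ooep is not taken as support. Klf2 lost its call without control replicates 2 or 8 or KD replicates 1 or 2 (adjusted p up to 0.111), Gdf3 without control replicates 2, 7 or 8 or KD replicates 1 or 2 (up to 0.100009). Gm8300 lost it without control replicate 2 or KD replicates 1 or 2 (up to 0.117), and Tdpoz3 without control replicates 2, 7 or 8 or KD replicates 2 or 6 (up to 0.0848). The part of these genes in the members' values was not tested.

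In KD blastocysts 18% of the 89 pathway genes tested were called higher and 13.5% lower, beside 16.7% and 19.8% of all genes tested, and no list was tested against all genes. Without the single-group genes, of which Apobec3, Gadd45a, Neil1 and Prdm14 were called, it was 17.5% and 12.5% of 80, beside 15.1% and 18.4%. Of 16 genes of base excision repair, 6 were higher and 2 lower (median log2 fold change 0.21, where the median of all genes tested was 0.00). With single-group genes set apart, 4 were higher and 1 lower of 12. The p-values of Apobec3 and Neil1, given below, are not taken as support. The cytidine deaminase Apobec3 rose from 0.891 ± 0.376 to 7.63 ± 2.62 FPKM (n = 4 each; 2.16, SE 0.228, adjusted p 4.08e-05) and the stress-induced Gadd45b from 1.86 ± 0.389 to 7.73 ± 1.45 FPKM (1.60, SE 0.168, adjusted p 3.94e-05). The repair scaffold Xrcc1 (1.18) rose as well, as did Ung (1.15), Gadd45a (1.01) and Gadd45g (0.82), named after their values were seen, and Neil1 fell from 3.01 ± 1.51 to 0.571 ± 0.0644 FPKM (-1.26, SE 0.220, adjusted p 0.00103), beside Parp2 (-0.55). Of 10 regulators of de novo methylation, 3 were higher and 0 lower (median 0.21). Kdm2b rose from 1.16 ± 0.113 to 7.05 ± 2.58 FPKM (1.84, SE 0.197, adjusted p 4.60e-05), with the H3K9 methyltransferase Ehmt2 (0.64) and Sall4 (0.58). Of 8 partners of maintenance methylation, 1 was higher and 3 lower (median -0.09). Lig1 fell from 10.9 ± 1.82 to 6.30 ± 0.771 FPKM (-0.69, SE 0.160, adjusted p 0.00545), with Pcna (-0.60) and Uhrf2 (-0.58), while Usp7 rose (0.43). Of 11 genes of imprint protection and KRAB repression, 3 were higher and 0 lower (median 0.15), the KRAB zinc finger gene Zfp568 (0.78), Trim28 (0.60) and Morc3 (0.57).

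The remaining lists were mixed in KD blastocysts. Of 12 TET partners, 0 were higher and 2 lower (median 0.01). With the single-group gene Prdm14 set apart it was 0 and 1 of 11, and its p-value is not taken as support. Prdm14, a germ cell and pluripotency factor known to repress de novo methyltransferases, fell from 2.16 ± 0.131 to 0.555 ± 0.262 FPKM (log2 fold change -1.03, SE 0.162, adjusted p 0.000525), beside Ascc1 (-0.51). Of 17 genes of methyl donor metabolism, 1 was higher and 2 lower (median -0.11). Bhmt rose from 291 ± 94.2 to 849 ± 258 FPKM (1.55, SE 0.255, adjusted p 0.000725), and Shmt1 (-0.52) was among those that fell. Of 11 germline genes, 2 were higher and 3 lower (median -0.20). Tex19.1, a germ cell gene known to be silenced by promoter methylation, rose from 118 ± 46.7 to 276 ± 49.7 FPKM (1.31, SE 0.243, adjusted p 0.00146), as did Hormad1 (0.90), while Stk31 (-1.72), Asz1 (-1.59) and Mael (-1.003) fell. Of 4 readers of methylated CpG, 0 were called (median 0.13). Germline genes were called both ways, 18.2% higher and 27.3% lower, beside 16.7% and 19.8% of all genes tested. This difference was not tested, and the methylation of these genes was not measured.

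Of the 25 listed genes that the naming rule took in KD blastocysts, 14 were called without any single library and 11 were not. The 14 include the single-group genes Apobec3, Neil1 and Prdm14, for which this is not taken as support. Usp7 and Trim28 stayed called only without KD replicate 4 (adjusted p otherwise up to 0.116 and 0.0716). Uhrf2 ended without control replicates 1 or 4 or KD replicates 4 or 6 (up to 0.0922), and Pcna without control replicates 1 or 4 or KD replicate 5 (up to 0.0640). Ehmt2 ended without control replicates 1, 4 or 6 or KD replicates 5 or 6 (up to 0.0750), and Sall4 without those controls or KD replicates 1 or 4 (up to 0.0855). Ascc1 ended without control replicates 4 or 6 (up to 0.0620), and Mael without control replicate 6 or KD replicates 4 or 5 (up to 0.0550). Parp2 ended without control replicates 1, 4, 5 or 6 or KD replicates 4 or 5 (up to 0.0992). Shmt1 ended without control replicates 4, 5 or 6 or KD replicates 1 or 6 (up to 0.0969), and Hormad1 without control replicates 4 or 6 or KD replicates 1 or 4 (up to 0.0775).

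Of 97 pathway genes tested, 9.28% were called for a higher and 1.03% for a lower KD effect in blastocysts than in morulae, beside 5.43% and 6.32% of all genes tested, a difference that was not tested. Without the single-group genes, of which Prdm14 and Slc25a31 were called, it was 8.89% and 0% of 90, beside 5.54% and 5.31%. The effect was higher for Kdm2b (log2 difference 2.86, SE 0.511, adjusted p 0.00184), Apobec3 (2.30), Bhmt (2.02), Xrcc1 (1.53), Slc25a31 (1.44), Tex19.1 (1.43) and Gadd45b (1.13), and lower for Prdm14 (-0.93, SE 0.207, adjusted p 0.00811). These 8 calls held without any single library, which for the single-group genes Slc25a31 and Prdm14 is not taken as support. Tuba3a (1.09) was called too, and lost the call without morula control replicate 7, morula KD replicates 1 or 2, blastocyst control replicates 1 or 6 or blastocyst KD replicates 1 or 5 (adjusted p up to 0.0933). The germline gene Ddx4 (0.94), named after its value was seen, held in each fit as well. In group means, KD blastocysts stood between control morulae and control blastocysts for Kdm2b and Apobec3. Kdm2b was at 13.5 ± 7.13, 7.05 ± 2.58 and 1.16 ± 0.113 FPKM in control morulae, KD blastocysts and control blastocysts, and varied widely in KD morulae (6.05 ± 5.31 FPKM, n = 3). Apobec3 was at 24.5 ± 9.79, 7.63 ± 2.62 and 0.891 ± 0.376 FPKM in the same order. For Dnmt3l, KD blastocyst replicates 1, 4 and 6 lay above every control morula and replicate 5 just below the highest, and that pair of groups was not tested.

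Between the 2-cell stage and the morula the KD effect was called different for 5 of 106 pathway genes, 0.943% higher and 3.77% lower, beside 0.438% and 1% of all genes tested. This difference was not tested, Neil1 was a single-group gene, and each of the 5 calls ended without some single libraries. It was higher in morulae for Hormad1 (log2 difference 1.30) and lower for Tex101 (-1.75), Slc25a31 (-1.55), Shmt2 (-1.07) and Neil1 (-0.76). The adjusted p reached 0.0908 for Hormad1, 0.0825 for Tex101, 0.131 for Shmt2 and 0.117 for Neil1, each without morula KD replicate 2, and 0.0863 for Slc25a31 without morula KD replicate 1. Of 14 libraries left out in turn, Tex101 was called without 9, Hormad1 and Slc25a31 without 6, Neil1 without 3 and Shmt2 without 2. Tex101 lost its call without 2-cell KD replicates 1 or 4, morula control replicate 8 or morula KD replicates 2 or 6. Hormad1 and Slc25a31 lost theirs without 2-cell control replicates 1 or 2, 2-cell KD replicates 2 or 4, morula control replicate 8 or morula KD replicates 1 or 2, and also without morula control replicate 2 (Hormad1) or 7 (Slc25a31). Neil1 kept its call only without 2-cell control replicate 5, morula control replicate 1 or morula KD replicate 6, and Shmt2 only without 2-cell control replicate 4 or morula control replicate 2. The marker Nanog (-2.15) was the 1 called among the marker lists, without 5 of 14 libraries (adjusted p up to 0.0820). It lost the call without 2-cell control replicate 2, 2-cell KD replicates 1, 2 or 4, morula control replicates 2, 7 or 8 or morula KD replicates 1 or 2.

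Among markers, from the morula to the blastocyst the KD effect was called higher for 1 and lower for 3 of 11 of the inner cell mass and higher for 1 and lower for 2 of 12 of trophectoderm, without single-group genes. Of all tested, it was 1 and 1 of 8 for maternal transcripts and 0 for 7 transcripts of the 2-cell stage, 3 of primitive endoderm and 1 of cumulus and granulosa cells, beside 5.43% higher and 6.32% lower of all genes tested (5.54% and 5.31% without single-group genes). Ooep (-2.28), Nanog (2.49), Tdgf1 (-2.18), Prdm14, Id2 (-2.21) and Dppa1 (-2.66) were called in all 15 fits without a single library. Padi6 (0.62) was called only without morula KD replicate 2 or blastocyst KD replicate 4 (adjusted p otherwise up to 0.107). Klf2 (-0.76), named after its value was seen, was called only without morula control replicates 1 or 7, blastocyst control replicates 4 or 5 or blastocyst KD replicate 1 (otherwise up to 0.100074). Dppa5a (-1.13) lost its call without morula control replicate 1, morula KD replicates 2 or 6, blastocyst control replicates 1 or 4 or blastocyst KD replicates 5 or 6 (up to 0.0795). Tfap2c (1.10) lost it without morula KD replicate 1 (0.0556). Prdm14, Gata2 and Elf5 were single-group genes, are not in these counts, and their calls are not taken as support.

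By position (GRCm38, the assembly also called mm10; GENCODE), the called members are Dnmt3b (ENSMUSG00000027478.15, chr2:153649450-153687730, plus strand) and Dnmt3l (ENSMUSG00000000730.13, chr10:78041947-78063622, plus strand). The maintenance genes are Dnmt1 (ENSMUSG00000004099.16, chr9:20907209-20959888, minus strand) and Uhrf1 (ENSMUSG00000001228.14, chr17:56303321-56323486, plus strand), and Dnmt3a is ENSMUSG00000020661.15 (chr12:3806007-3914443, plus strand). The TET genes, all on the minus strand, are Tet1 (ENSMUSG00000047146.17, chr10:62804570-62908996), Tet2 (ENSMUSG00000040943.12, chr3:133463679-133545139) and Tet3 (ENSMUSG00000034832.15, chr6:83362373-83459084). The protectors, on the plus strand, are Dppa3 (ENSMUSG00000046323.8, chr6:122626410-122630272) and Zfp57 (ENSMUSG00000036036.15, chr17:37001163-37010635). Exons of 3 members overlap a gene of the opposite strand: Dnmt3a with Dnmt3aos over 133 bases, Dnmt3l with Aire over 67 and Tet2 with Gm42567 over 43. Smart-seq2 reads carry no strand, so which gene reads there belong to is uncertain. Of the 100-base stretches in Dnmt3b transcripts, 4.47% (241 of 5392) also occur in Dnmt3c, and of those in Uhrf1 transcripts 5.531% (246 of 4448) in Gm5648. The share was highest for the knocked-down gene, since 25.69% (570 of 2219) of the H2afz stretches also occur in Tmcc1 and 12.98% (288) in Gm8203. Dnmt3c was not tested in the KD comparison of blastocysts, where it was under the filter, and how reads of such pairs were divided is uncertain.

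Each member's profile over the 6 groups was compared with that of 15687 other genes, by the root mean square distance between group means of log2(FPKM + 1) after centring. The nearest gene was Ctdspl for Dnmt1 (distance 0.0255) and Slc30a9 for Uhrf1 (0.124). It was Rab3a for Dnmt3a (0.0613), Alg14 for Dnmt3b (0.0576) and Gm12366 for Dnmt3l (0.0789). It was mt-Nd4 for Tet1 (0.0785), Kxd1 for Tet2 (0.0656) and Epha3 for Tet3 (0.0319), and Dppa3-ps for Dppa3 (0.0430) and Ncoa1 for Zfp57 (0.104). Dppa3-ps is a pseudogene of Dppa3. None of the 792 stretches of 100 bases in Dppa3 transcripts occurs in transcripts of another gene, yet shorter shared stretches were not counted, so how far reads of this pair were kept apart is uncertain.

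Dnmt3b and Dnmt3l, the 2 members called in KD blastocysts, differ in the CpG content of the DNA before their starts. The windows of 250 bases before each annotated start were read from RefSeq (build GRCm38.p6), which held windows for 9 of the 10 members and none for Dppa3. The motif searched was CG, which reads the same on both strands, and 92.13% of all 32851 windows hold it at least once (median 6). The Dnmt3b window (chr2:153649199-153649448, plus strand) holds 21 CG, and 85.18% of all windows hold as many or fewer. Of the 3 Dnmt3l windows, that at chr10:78049592-78049841 (plus strand) holds 4 CG (44.42% of windows hold as many or fewer) and that at chr10:78055085-78055334 (plus strand) holds 3 (37.77%). They are printed 5′ to 3′ with each CG in capitals, because they show the dense and the sparse form side by side. The third Dnmt3l window is left out since it runs over exons of the gene, and the FPKM do not tell which start was used. Among members not called in KD blastocysts, the Dnmt1 windows hold 2, 7 and 26 CG and the Tet2 window 51. A link between CG number and the calls was not tested.
Dnmt3b: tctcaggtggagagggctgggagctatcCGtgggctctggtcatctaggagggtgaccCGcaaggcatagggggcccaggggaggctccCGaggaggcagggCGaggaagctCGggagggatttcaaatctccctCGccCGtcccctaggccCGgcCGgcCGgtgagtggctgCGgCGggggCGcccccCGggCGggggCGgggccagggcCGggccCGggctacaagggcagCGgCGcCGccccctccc
Dnmt3l, chr10:78049592: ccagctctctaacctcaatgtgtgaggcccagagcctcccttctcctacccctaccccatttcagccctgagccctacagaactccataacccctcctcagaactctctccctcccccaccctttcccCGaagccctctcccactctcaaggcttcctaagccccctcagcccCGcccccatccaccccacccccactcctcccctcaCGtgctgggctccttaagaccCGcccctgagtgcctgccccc
Dnmt3l, chr10:78055085: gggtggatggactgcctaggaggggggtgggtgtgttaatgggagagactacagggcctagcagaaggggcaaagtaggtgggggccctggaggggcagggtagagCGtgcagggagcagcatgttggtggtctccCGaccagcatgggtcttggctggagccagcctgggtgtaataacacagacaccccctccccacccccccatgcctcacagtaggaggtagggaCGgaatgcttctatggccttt
Methylation of these windows was not measured.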

How the data were processed

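RNA-seq of pooled mouse embryos gave 22 libraries in 6 groups, at 3 stages with and without knockdown of H2A.Z. Per the labels, the authors aligned reads with STAR to mm10 (GRCm38) and made FPKM with StringTie 2.1.4, and the values are used as deposited. Read counts per library are not in the table, so depth is unknown. Libraries were scaled by median-of-ratios factors. Genes reaching 1 FPKM in 3 or more libraries of a fit were kept, and their log2(scaled FPKM + 1) was tested with limma 3.58.1 (lmFit, eBayes with trend; R 4.3.3), without covariates, and adjusted by Benjamini-Hochberg. The count-based test of the study could not be run without counts. There were 7 comparisons: KD against control at each stage, 2 of development in controls, and 2 of the KD effect between stages. Members, 8 pathway lists and 6 marker lists were chosen with earlier results of these data known. Named genes were the 10 members, H2afz, up to 3 called genes in each direction with the largest absolute log2 fold change from each list and comparison, and each member's nearest gene by 6 group means. Markers were summed as FPKM. Alternatives were a pseudocount of 0.1, no filter, FPKM as deposited, all libraries in 1 fit, each library left out, a replicate block, a batch term from replicate numbers and rescaled factors. The method was tested on simulated data with 200 changed genes at a log2 change of 2, of which 91 to 98% were recovered. The changed genes were drawn only from those well above the filter. The recovery thus does not cover genes of low expression or smaller changes, such as those of the members in KD embryos. Between 3.5% (KD morulae) and 7.55% (KD blastocysts) of calls were false. Figures and annotation used Python 3.11.15, numpy 2.4.6 and matplotlib 3.10.9.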

Additional observations from a re-analysis of the deposited data

Results flagged for a closer look

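In groups of 4 libraries, the lowest or highest value of a member or of H2afz was set apart where its gap to the nearest library, over the range of the group, was above Dixon's 95% critical value for 4 samples. This held in 5 of 44 groups over 11 genes, and chance alone gives about 1 in 20 groups. Dnmt3a was at 1.65 FPKM in KD blastocyst replicate 5 (ratio 0.963) and Dnmt3b at 6.45 FPKM in the same library (0.920), both above the rest of their group. Dnmt3b was at 6.72 FPKM in control morula replicate 1 (0.874), above the rest. In control 2-cell replicate 1, Dnmt1 was at 2.22 FPKM (0.920) and Dnmt3b at 0.706 FPKM (0.888), both below the rest.

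The KD effect differed between stages by limma's interaction test for the following genes of the pathway and H2afz, and for no member. From the 2-cell stage to the morula the log2 difference was -2.88 for H2afz, -0.76 for Neil1, -1.07 for Shmt2, 1.30 for Hormad1, -1.55 for Slc25a31 and -1.75 for Tex101, and each of the last 5 calls ended without some single libraries. From the morula to the blastocyst it was 2.86 for Kdm2b, -0.93 for Prdm14, 2.30 for Apobec3, 1.53 for Xrcc1, 1.13 for Gadd45b, 2.02 for Bhmt, 1.44 for Slc25a31, 1.43 for Tex19.1, 1.09 for Tuba3a and, named after its value was seen, 0.94 for Ddx4. Of these, Tuba3a lost its call in 7 of 15 fits without a single library, and the others kept theirs. Slc25a31 and Prdm14 at this step, and Neil1 at the earlier step, are single-group genes, whose calls are not taken as support. Both sets of differences use the same morula libraries. No explanation was tested.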

How the results depend on the processing

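Of 346 values of members in alternatives other than leaving out a library, 325 kept their direction and their side of the threshold, 4 became weaker, 7 stronger and 10 changed sign. Of 585 values with 1 library left out, 532 were kept, 15 became weaker, 5 stronger and 33 changed sign. The count of members called moved to 1 in KD morulae with the batch term from replicate numbers (Dnmt3l, adjusted p 0.0382), to 1 in KD blastocysts without the filter and to 1 with FPKM as deposited (Dnmt3b not called, adjusted p 0.0755 and 0.0775), and from 1 to 3 there without a single library. With all 22 libraries in 1 fit it was 3 in KD blastocysts, with Uhrf1. It moved to 6 between control morulae and blastocysts with all 22 libraries in 1 fit (2 to 4 without a single library), where it was 2 without the filter and 4 with FPKM as deposited. It fell from 9 to 8 between control 2-cell embryos and morulae without the filter, and moved to 1 for the KD effect between morula and blastocyst with FPKM as deposited (Dnmt3l 0.66, adjusted p 0.0439). Signs turned only for log2 fold changes that were not called either way. In 2-cell KD embryos Uhrf1 was at -0.0373 with FPKM as deposited and -0.0183 with the replicate block, Dnmt3b at 0.000484 with all 22 libraries, 0.00962 with the replicate block and 0.00446 with the batch term, and Tet1 at 0.00525 with all 22 libraries. In KD morulae Dnmt3b was at -0.0718 and Tet2 at -0.0455 with FPKM as deposited, and Tet2 at -0.0484 with the replicate block. The difference of the KD effect between 2-cell stage and morula was -0.0163 for Dnmt3b with FPKM as deposited. Without a single library, 2-cell values spanned -0.101 to 0.0499 for Dnmt3b, -0.153 to 0.0748 for Dnmt3l, -0.0895 to 0.105 for Uhrf1 and -0.107 to 0.1002 for Tet1. Morula values spanned -0.0980 to 0.115 for Dnmt3b and -0.0592 to 0.162 for Tet2, and blastocyst values -0.00334 to 0.632 for Tet2, -0.0749 to 0.279 for Dppa3 and -0.305 to 0.0913 for Zfp57. The KD effect between 2-cell stage and morula spanned -0.0712 to 0.142 for Dnmt3b, -0.147 to 0.161 for Tet2 and -0.313 to 0.0794 for Dppa3, and that between morula and blastocyst -0.105 to 0.527 for Tet2 and -0.349 to 0.00865 for Dppa3. The cause was not tested. With the replicate block, members called were 0, 0 and 2 at the 3 stages, and all genes called in KD morulae were 645 higher and 979 lower. The block was not fitted across stages. Same-numbered control and KD libraries had correlated deviations of 0.0146 to 0.214 (2-cell), 0.0944 and 0.181 (morula) and -0.111 to 0.354 (blastocyst), and not every library correlated best with its own number. Scaling factors divided by their own geometric mean were added after seeing the data, because counts of all genes called differed slightly from an earlier account of these data, and left each member count as it was. Depth is unknown without counts.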
